A study of Rattus norvegicus with 18 samples.

Results

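Transcript levels in blood mononuclear cells (PBMC, chiefly lymphocytes and monocytes, taken from peripheral blood on a Ficoll gradient) were compared between rats on a high-protein diet (HPD) and rats on a low-fat control diet (LFD). The arrays were taken by the diet that their source name gives, which selected 6 HPD and 6 LFD arrays, 12 of the 18 in the series. The other 6 came from a high-fat diet (HFD) and are given only as levels beside a few genes. All animals were male Wistar rats, 2 months old at the start, kept on their diet for 4 months and fasted for 14 h before they were killed. LFD, eaten freely, supplied 70% of energy as carbohydrate, 10% as fat and 20% as protein. HPD supplied 45% as carbohydrate, 10% as fat and 45% as protein, most of it casein, and was rationed each day to the energy that the LFD rats had eaten. The contrast therefore exchanged carbohydrate for protein at equal fat and equal energy. HFD, rationed likewise, supplied 20% as carbohydrate, 60% as fat and 20% as protein. The HPD group includes an array that the title calls HFD replicate 7, against the HPD given by its source name and its description. It is called HPD replicate 7 here.

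Dietary protein beyond the need for synthesis is deaminated, chiefly in the liver, and its nitrogen leaves as urea while its carbon enters glucose or the tricarboxylic acid cycle. Cells sense amino acids through the mTOR complex, which promotes ribosome production and translation when they are plentiful, and through the kinase GCN2, which raises the transcription factor ATF4 when they are scarce. Blood cells carry insulin receptors, amino acid transporters and nutrient sensors, and they are easily sampled, so their transcripts have been studied as a readout of diet. A PBMC preparation is a mixture whose lymphocytes and monocytes are accompanied by platelets and by reticulocytes, the young red cells that still hold RNA for globin and haem synthesis.

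Each array gave the log2 ratio of the RNA of 1 rat (Cy5) to a pool of the samples (Cy3), so a value of 0 means the level of the pool. Median Cy5 spot signals ranged over the arrays from 61.5 to 84.3 intensity units, median local backgrounds from 32 to 37, and 53.1 to 63.4% of probes were well above background. After a filter, 23673 of 41012 probes were tested. The brightest probe of each named gene gave 9882 genes. Pairs of arrays correlated at -0.54 to 0.43 over their log2 ratios. Dyes are stated in the labels and every rat was set against the pooled samples, so the ratios were kept as Cy5 over Cy3. The arrays lay on 5 slides. Slide 1 held LFD replicates 1 and 2, slide 2 held HPD replicates 1, 3 and 7, slide 3 held LFD replicate 3 and HPD replicate 5, slide 4 held LFD replicates 4 and 5 and HPD replicates 2 and 4, and slide 5 held LFD replicate 6. Diets could be compared within slides 3 and 4 only. With diet in the model, limma called 906 probes for slide. On the first principal component (36.6% of the variance) LFD replicates 2 and 1 had scores of -93.0 and -49.4 and LFD replicate 6 a score of 86.3, with all HPD arrays between -23.9 and 19.9.

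**Figure D1:**
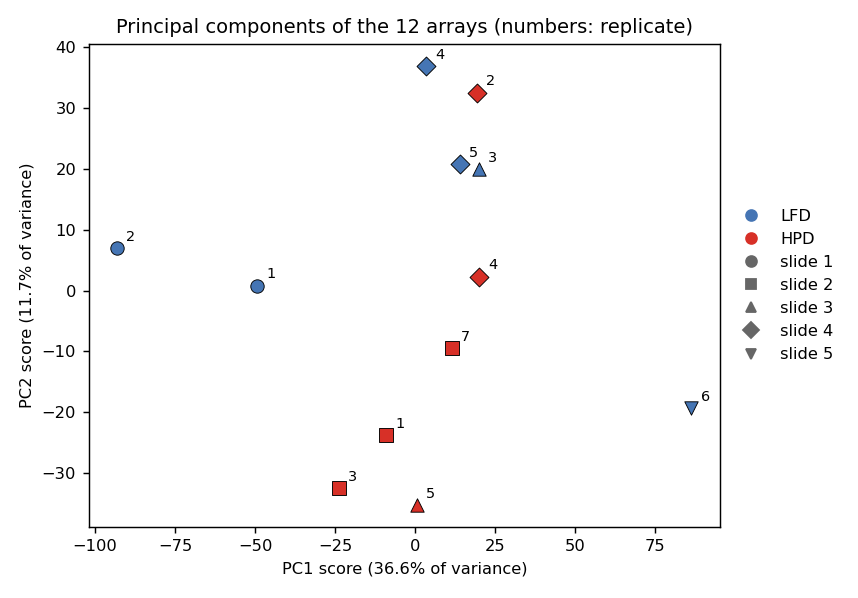
Scores of the 12 arrays on the first and second principal components of the log2 ratios (36.6 and 11.7% of the variance), coloured by diet, with a marker shape per slide and the replicate number beside each point. The LFD arrays reach both ends of the first component and the HPD arrays lie between -23.9 and 19.9.

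The preparations carried the markers of PBMC. Of all genes listed for a cell type, with those that had no tested probe counted in, 28 of 32 T cell genes, 14 of 24 B cell genes, 25 of 32 NK and cytotoxic cell genes and 28 of 34 monocyte genes were well above background on all 12 arrays. So were 25 of 32 platelet genes, 27 of 39 genes of globin and haem synthesis and 17 of 24 genes of the red cell membrane. Neutrophil genes were measured less completely, with 9 of 30 above background on all arrays.

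No transcript passed the test between the diets. Of 23673 probes, 0 (0%) reached an adjusted p under 0.05 in limma, the lowest adjusted p was 0.694, and 522 probes had an unadjusted p under 0.05, of which 274 were higher and 248 lower in HPD. The threshold alone would give 1183.7. Of the 9882 genes, 61 (0.617%) were higher and 121 (1.22%) lower in HPD at an unadjusted p under 0.05. In 2 genes (0.0202%) every HPD array lay below every LFD array, and in 4 genes (0.0405%) every HPD array lay above. The median standard error of a log2 difference was 0.205. When known differences were added to simulated arrays of this size, 48 of 100 differences of 1 log2 unit and 89 of 100 of 2 log2 units were called. The simulation drew each probe independently and held no slide effect, so these shares may not hold for the real arrays. Since no probe passed, all differences below are measured values that did not pass. They are given as log2 difference, HPD minus LFD, ± its standard error, with 6 arrays per diet unless fewer are stated.

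The gene with the smallest p was Glycam1, a mucin-like glycoprotein that carries ligands for the lymphocyte homing receptor L-selectin on the high endothelial venules of lymph nodes and is also made by the mammary gland. In LFD its log2 ratios ran from -1.02 through a median of -0.60 to 0.11. In HPD they ran from 0.59 through 0.72 to 1.23. The groups did not overlap, and 4 of the 6 HPD arrays lay between 0.70 and 0.72. The difference was 1.31 ± 0.21, a 2.48-fold higher level in HPD (limma, unadjusted p 2.93e-05, adjusted p 0.694). The signal was low but cleared the background on all HPD arrays and on 5 of the 6 LFD arrays. It was 0.48 higher in HPD within slide 3 and 1.57 within slide 4, and 1.06 higher without slide 1. On the HFD arrays Glycam1 lay between -1.05 and 0.24. Its probe matches chromosome 7, 142455707 to 142455766, of rat assembly rn4. The part of the gene under this and other probes was not analysed here.

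Of the other transcripts with low p and higher levels in HPD, 5 had the same lowest and highest LFD arrays. Kif19, a kinesin that sets the length of cilia, stood at 1.64 ± 0.39, with LFD arrays from -2.10 to 0.32 (median -1.21) and HPD arrays from -0.18 to 1.21 (median 0.76). Dlk1, a membrane protein that inhibits adipocyte differentiation, stood at 1.62 ± 0.41, with LFD from -2.06 to 0.50 and HPD from -0.02 to 1.18. Ccl11, the eosinophil chemokine eotaxin, stood at 1.50 ± 0.39, with LFD from -2.08 to 0.63 and HPD from 0.29 to 1.14. In each, LFD replicate 1 was lowest, LFD replicate 6 was the highest LFD array, and the groups overlapped at that array. Rbm38, an RNA-binding protein induced by p53, stood at 1.02 ± 0.26, and Spmip8, a sperm microtubule protein, at 1.44 ± 0.40, with the same lowest and highest LFD arrays. Within slide 3 the 5 genes differed by 0.51 to 1.04 and within slide 4 by 1.23 to 2.37. The others did not have both of these LFD arrays at their ends. Tinf2, a subunit of the shelterin complex at telomeres, stood at 0.47 ± 0.13, the collagen gene Col20a1 at 0.55 ± 0.16 and the transcription factor gene Nfic at 0.88 ± 0.25. The Nfic probe was well above background on 4 LFD and 5 HPD arrays.

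Every HPD array also lay above every LFD array for Ndufa8, a subunit of respiratory complex I, and Slc39a1, a zinc importer. Ndufa8 differed by only 0.12 ± 0.09, with LFD arrays from -0.14 to -0.01 and HPD arrays from -0.01 to 0.17. Slc39a1 stood at 0.56 ± 0.16, with LFD from -0.86 to -0.07 and HPD from -0.03 to 0.51, and was chosen after its values were seen. Its probe was well above background on 4 LFD and 6 HPD arrays.

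Among the transcripts lower in HPD, Ift43 had the smallest p. It encodes a subunit of the intraflagellar transport complex that moves cargo in cilia. LFD arrays ran from -0.26 through 0.32 to 0.78 and HPD arrays from -1.36 through -0.55 to -0.40, with no overlap. The difference was -0.94 ± 0.20, which left the HPD level at 52.1% of LFD (limma, unadjusted p 0.000385, adjusted p 1). It was -0.98 within slide 3 and -1.35 within slide 4, but the probe was well above background on only 4 arrays of each diet. The HFD arrays, from -0.62 to 0.05, overlapped both groups.

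The other gene with every HPD array below every LFD array was Cga, the alpha subunit shared by the pituitary glycoprotein hormones, at -0.55 ± 0.15. Its LFD arrays lay between 0.36 and 1.09 and its HPD arrays between -0.22 and 0.34. Fscn3, a fascin of the testis that bundles actin, stood at -0.66 ± 0.16, with LFD from -0.15 to 0.70 and HPD from -0.52 to -0.12. Only LFD replicate 6 overlapped the HPD arrays. Ccdc14, a centrosomal protein, stood at -1.41 ± 0.38, Htr7, a serotonin receptor, at -0.86 ± 0.24, and Eepd1, a nuclease-family protein, at -0.75 ± 0.21, with its other probe at -1.02. Fryl stood at -0.77 ± 0.22, Nol3, an inhibitor of apoptosis, at -0.93 ± 0.27 and Spetex2g, a member of a testis-expressed family of near-identical copies whose probes may share transcripts, at -1.16 ± 0.36. Eeig2 stood at -1.31 ± 0.37. Its probe was well above background on 5 LFD arrays and 1 HPD array, and those of Ccdc14, Nol3 and Spetex2g on 4 and 2, 6 and 3, and 6 and 2 arrays, so the lower levels of these genes lie near the background.

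**Figure D2:**
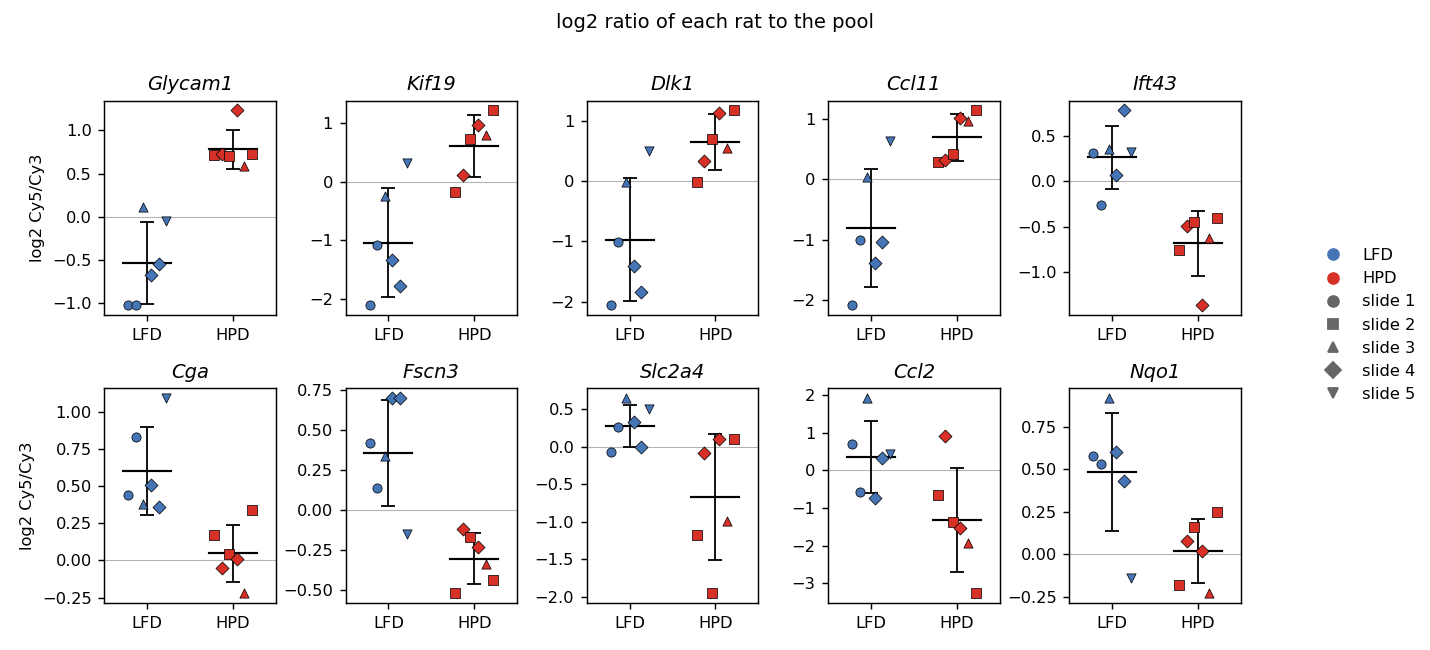
Log2 ratio of each rat to the pool for 10 genes named in the text, by diet, with a marker shape per slide, the group mean as a line and the SD as bars (6 arrays per diet). HPD points of Glycam1 lie above and those of Ift43 and Cga below every LFD point, and the LFD points of Kif19, Dlk1 and Ccl11 spread over more than 2 log2 units.

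Most genes of the red cell membrane had lower levels in HPD. Of 19 measured genes of the red cell membrane and its skeleton, 17 were lower in HPD, with a median log2 difference of -0.58. With normexp, a model-based background correction of the spot signals in place of the processed signals, the median was -0.23 or -0.22 (17 of 19 lower), and in the deposited log2 table it was -0.32 (16 of 19 lower). Of 29 measured genes of globin and haem synthesis and their regulators, 23 were lower, with a median of -0.22. Over all 9882 genes, 4908 (49.7%) were lower and the median was 0.001. An unadjusted p under 0.05, lower in HPD, was reached by 3 of 19 and 2 of 29 members, against 1.22% of all genes, and 0 members passed. The lists were drawn up with earlier results of these data known, so their direction is no independent evidence.

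Slc4a1, the band 3 anion exchanger of the red cell membrane, ran from -2.56 through -0.16 to 1.25 in LFD and from -2.61 through -1.71 to -0.79 in HPD. The LFD arrays fell apart: replicates 1, 2 and 3 lay between 0.80 and 1.25, above every HPD array, and replicates 4, 5 and 6 between -2.56 and -1.12, among the HPD arrays. The difference was -1.23 ± 0.67 (limma, unadjusted p 0.0904). Aqp1, the water channel of the red cell, stood at -0.99 ± 0.38 (limma, unadjusted p 0.0218), with LFD replicates 1 to 3 between 0.83 and 0.96, LFD replicates 4 to 6 between -0.93 and -0.34 and HPD between -1.61 and -0.15. The haemoglobin gene Hbb stood at -0.78 ± 0.54 and Alas2, the rate-limiting enzyme of haem synthesis in red cell precursors, at -0.72 ± 0.40. Both showed the same separation of LFD replicates 1 to 3 from 4 to 6. Hbb has near-identical copies in the globin cluster, and its probe may read more than 1 of them.

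Add2, an adducin that joins spectrin to actin in the red cell skeleton, stood at -1.22 ± 0.49 (limma, unadjusted p 0.0269), with its other probe at -0.43. The blood group protein gene Rhd stood at -0.90 ± 0.39 and Tmod1, a tropomodulin that caps the actin filaments of the skeleton, at -1.38 ± 0.66. Tmod1 had values on 5 of the 6 HPD arrays, and its probe was well above background on only 5 LFD and 4 HPD arrays. Among the regulators, Gata1, the transcription factor of the erythroid and megakaryocyte lineages, stood at -0.58 ± 0.28, and Nfe2, which acts in the same lineages, at -0.68 ± 0.30. Mkrn1, a ubiquitin ligase abundant in reticulocytes, varied little between HPD rats (SD 0.15) but more between LFD rats (SD 0.54). LFD ran from -0.44 through -0.04 to 1.1, highest on LFD replicate 2, and HPD from -0.70 through -0.42 to -0.28. Mkrn1 differed by -0.57 ± 0.22 (limma, unadjusted p 0.0229), by -0.85 within slide 3 and by -0.08 within slide 4.

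The slide and the LFD arrays that it holds moved with the values of the red cell list as a whole. The red cell list had a median over its members of 0.59 and 0.60 on the slide 1 arrays (LFD replicates 1 and 2) and 0.29 on LFD replicate 3, against -0.60 to -0.22 on LFD replicates 4 to 6 and -0.69 to 0.03 on the HPD arrays. Without slide 1 the median difference was -0.30, with 13 of 19 members lower. Within slide 3, 1 rat against 1, it was -1.11, and within slide 4, 2 against 2, it was -0.10. For globin and haem genes the median difference was -0.22 without slide 1 (26 of 29 lower), -0.62 within slide 3 and -0.03 within slide 4. Slc4a1 stood at 0.13 within slide 4. In RNA from mixed blood cells, fewer cells of a type and less RNA per cell cannot be told apart.

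The promoters of 4 of these genes are shown because each transcript had a lower level in HPD and each promoter held a GATA motif. Such motifs, bound by GATA factors, are the best known sites of erythroid genes. The motif searched was GATA preceded by A or T and followed by A or G, on either strand, from 250 bases before to 50 after the annotated start. It was found in 15 of 28 promoters of globin and haem genes (53.6%), 11 of 18 of red cell membrane genes (61.1%) and 11 of 23 of platelet genes (47.8%). By comparison 9 of 23 T cell promoters (39.1%) and 9 of 23 monocyte promoters (39.1%) held it. So did 13 of 60 ribosomal protein promoters (21.7%), 1683 of 8111 promoters of measured genes (20.7%) and 10155 of all 33469 promoters (30.3%). The shares of the lists count every member with a promoter, also members with no tested probe. A match is a description of the sequence only. The 250 bases before the start follow, 5′ to 3′ on the gene's strand, from RefSeq on assembly GRCr8, with the motif or its reverse complement in capitals. They are chrX:22895200-22895449 (plus strand) for Alas2, chr4:69163986-69164235 (minus) for Mkrn1, chr4:120054628-120054877 (plus) for Add2 and chr5:152370950-152371199 (plus) for Rhd.
Alas2: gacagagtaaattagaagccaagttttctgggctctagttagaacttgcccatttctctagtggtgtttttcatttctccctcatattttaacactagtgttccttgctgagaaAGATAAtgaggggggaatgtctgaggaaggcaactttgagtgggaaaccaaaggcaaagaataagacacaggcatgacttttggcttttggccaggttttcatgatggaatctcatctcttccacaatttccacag
Mkrn1: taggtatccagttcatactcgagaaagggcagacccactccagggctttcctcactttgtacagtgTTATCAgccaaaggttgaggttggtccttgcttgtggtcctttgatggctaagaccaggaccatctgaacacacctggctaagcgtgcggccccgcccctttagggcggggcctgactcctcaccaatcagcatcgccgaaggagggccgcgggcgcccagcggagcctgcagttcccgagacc
Add2: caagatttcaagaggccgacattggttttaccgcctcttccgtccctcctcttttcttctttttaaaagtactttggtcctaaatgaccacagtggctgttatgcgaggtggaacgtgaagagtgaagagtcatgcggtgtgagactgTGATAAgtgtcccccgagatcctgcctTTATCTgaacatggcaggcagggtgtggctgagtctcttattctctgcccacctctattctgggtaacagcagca
Rhd: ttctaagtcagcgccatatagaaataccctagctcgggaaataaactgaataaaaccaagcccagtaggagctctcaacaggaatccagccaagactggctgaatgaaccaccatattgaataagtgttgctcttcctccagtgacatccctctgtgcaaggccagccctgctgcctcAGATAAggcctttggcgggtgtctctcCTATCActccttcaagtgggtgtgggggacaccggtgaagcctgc
The first motif base lay 136 bases before the start in Alas2, 184 in Mkrn1, 102 and 75 in Add2, and 72 and 45 in Rhd.

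Platelet genes were lower in HPD in 24 of 26 cases, against 49.7% of all genes, with a median log2 difference of -0.50. In limma 3 members had an unadjusted p under 0.05, all lower, against 1.22% of all genes. Platelets carry RNA from megakaryocytes and adhere to leukocytes in density gradients. Treml1, a receptor of platelet granules, ran from -0.80 through -0.03 to 1.49 in LFD and from -1.75 through -0.59 to -0.25 in HPD, a difference of -0.85 ± 0.37 (limma, unadjusted p 0.0377), with its other probe at -0.64. The groups overlapped, with LFD replicate 2 highest and HPD replicate 3 lowest. Tbxas1, thromboxane synthase, stood at -0.54 ± 0.24, the integrin subunit Itgb3 of the fibrinogen receptor at -0.60 ± 0.27 and P2ry12, the platelet ADP receptor, at -0.68 ± 0.33. Pf4, the granule chemokine platelet factor 4, stood at -0.72 ± 0.46. LFD replicate 2 lay at 2.40, LFD replicate 4 at 0.66 and the other LFD arrays between -0.57 and -0.39, among the HPD arrays, which ran from -1.43 to -0.06, and the medians of the groups were -0.39 and -0.41. The platelet list as a whole had medians of -0.79 to 0.93 on LFD arrays, highest on LFD replicate 2, and -1.31 to -0.09 on HPD arrays, lowest on HPD replicate 3. Its median difference was -0.31 without LFD replicate 2, -0.41 without slide 1 and within slide 3, -0.13 with slide as a block (19 of 26 lower) and -0.01 within slide 4 (14 of 26 lower).

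**Figure D3:**
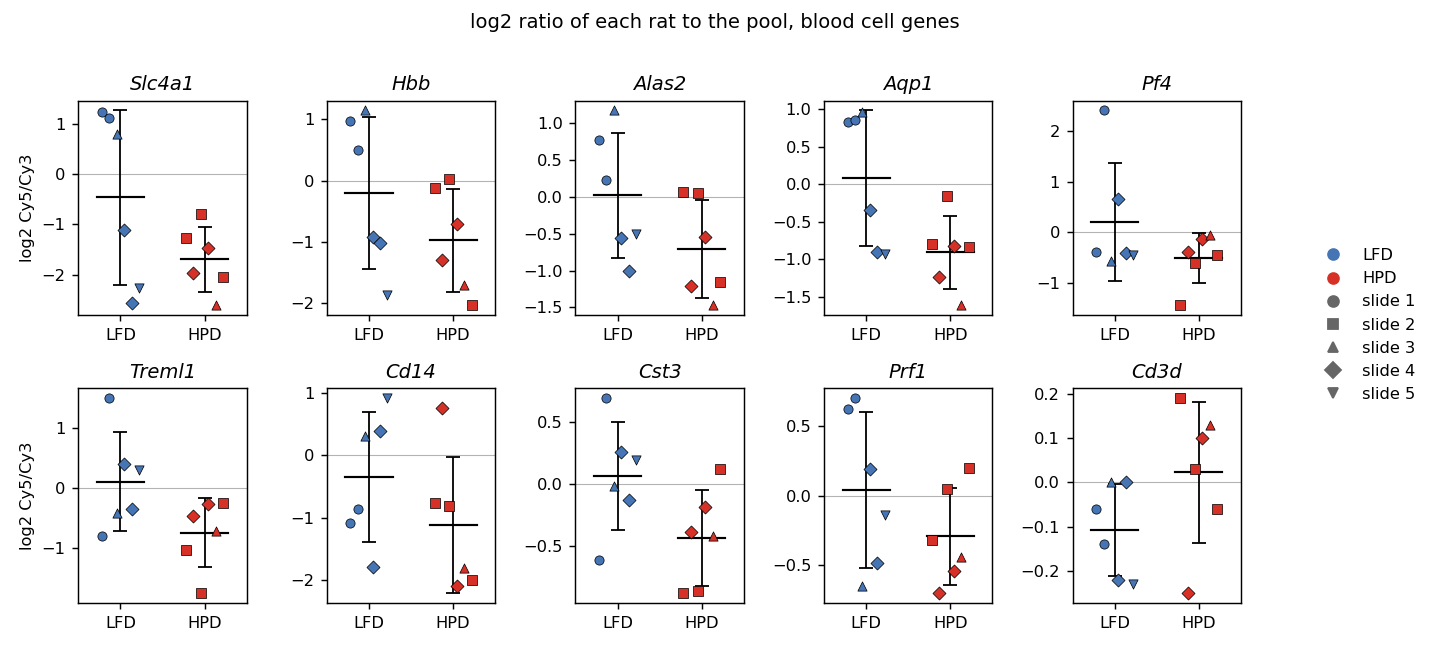
Log2 ratio of each rat to the pool for 10 genes of red cells, platelets, monocytes, cytotoxic cells and T cells, by diet, with a marker shape per slide, the group mean as a line and the SD as bars (6 arrays per diet). LFD points of Slc4a1, Hbb, Alas2 and Aqp1 form an upper set (replicates 1 to 3) and a lower set (replicates 4 to 6), and the lower set lies among the HPD points.

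Monocyte genes were lower in HPD in 26 of 30 cases, with a median of -0.20. Vcan, a proteoglycan that classical monocytes express strongly, stood at -1.57 ± 0.65 (limma, unadjusted p 0.0311), but its probe was well above background on 5 LFD and 2 HPD arrays. Cst3, the protease inhibitor cystatin C, was measured on all arrays and ran from -0.61 through 0.09 to 0.69 in LFD and from -0.88 through -0.41 to 0.12 in HPD. It differed by -0.50 ± 0.23, and its other probe by -0.46. On HPD replicate 4, where the monocyte list was lowest, Cst3 lay at -0.19. Cst3 was lowest on HPD replicates 1 and 3 (-0.88 and -0.86) and highest on LFD replicate 2 (0.69). The platelet list had medians of -0.58, -1.31 and 0.93 on these arrays, and its part in the Cst3 values was not tested. Cd14, the co-receptor for lipopolysaccharide, ran from -1.78 to 0.91 in LFD and from -2.09 to 0.75 in HPD, a difference of -0.76 ± 0.55, and lysozyme (Lyz2) stood at -0.56 ± 0.35. Clec10a, a lectin of dendritic cells and macrophages, stood at -0.67 ± 0.24 (limma, unadjusted p 0.0155). The monocyte list had its lowest median, -1.24, on HPD replicate 4, against -0.54 to 0.28 on the other HPD arrays and -0.56 to 0.29 on LFD arrays. Without HPD replicate 4 the median difference was 0.00 and 15 of 30 members were lower. It was -0.29 without slide 1, -0.59 within slide 3 and -0.42 within slide 4, where HPD replicate 4 was 1 of the 2 HPD arrays.

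Neutrophils, which a gradient should leave behind, gave no common direction: 7 of 17 of their genes were lower and the median was 0.05, though it was -0.24 with slide as a block. The members ranged from -0.56 to 0.83, and 10 of 17 were higher in HPD. Both genes named here lay at the low end. Trem1, a receptor that amplifies inflammation in neutrophils and monocytes, stood at -0.56 ± 0.25 and Csf3r, the receptor of the growth factor G-CSF, at -0.55 ± 0.41. On HPD replicate 4 the median of the neutrophil list was -0.84.

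Genes of NK and other cytotoxic cells were lower in HPD in 22 of 25 cases, with a median of -0.17 and 0 members at an unadjusted p under 0.05 in limma. S1pr5, which guides NK cells out of the bone marrow, stood at -0.47 ± 0.26, the receptor Klrb1b at -0.69 ± 0.44, the pore-forming protein perforin (Prf1) at -0.33 ± 0.25 and the receptor Cd244 at -0.31 ± 0.24. Prf1 ran from -0.65 to 0.70 in LFD, with both slide 1 arrays above the HPD arrays, and from -0.70 to 0.20 in HPD. On the list as a whole the slide 1 arrays had the highest LFD medians, 0.56 and 0.48. Without slide 1 the median difference was 0.06 and 12 of 25 members were lower, and within slide 3 it was 0.28. Within slide 4, which also leaves those arrays out, it was -0.14 with 17 of 25 lower, and with slide as a block it was -0.01.

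Lymphocyte genes showed less. Of 29 T cell genes, 15 were lower and 14 higher in HPD, the median was 0.00 and the members ranged from -0.18 to 0.21. Cd3d, a chain of the T cell receptor complex, stood at 0.13 ± 0.11, with LFD from -0.23 to 0.00 and HPD from -0.25 to 0.19, and Cd8b, of cytotoxic T cells, at 0.20 ± 0.16. Of 15 B cell genes, 10 were higher and 5 lower, with a median of 0.07 that was -0.07 with slide as a block and -0.18 within slide 4. Vpreb3 stood at 0.35 ± 0.30 and the B cell transcription factor Ebf1 at 0.22 ± 0.27. Sdc1, the syndecan of plasma cells, stood at -0.34 ± 0.17. Dendritic cell genes had a median of -0.06 (8 of 12 lower), MHC class II presentation genes -0.01 (9 of 17), plasma cell genes 0.07 (3 of 7) and genes of basophils, mast cells and eosinophils -0.07 (6 of 10). Without slide 1 the median was 0.13 for T cells, -0.30 for dendritic cells, -0.17 for plasma cells and -0.28 for basophils, mast cells and eosinophils.

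**Figure D4:**
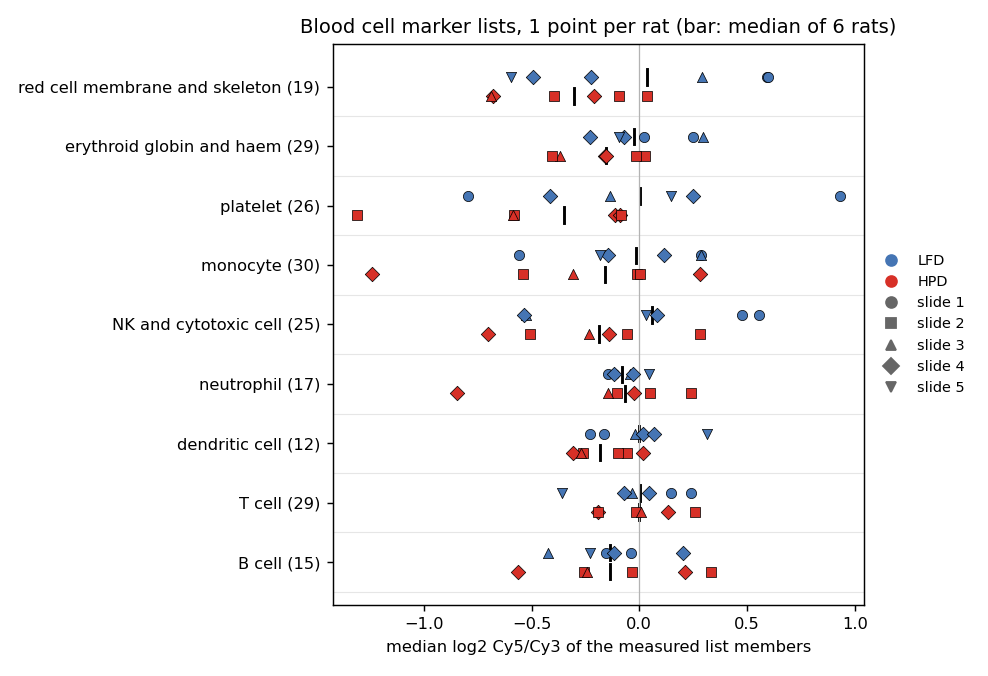
Median log2 ratio of the measured members of 9 blood cell marker lists (number measured in brackets), 1 point per rat by diet, with a marker shape per slide and a bar at the median of the 6 rats. The diets overlap in every list, the upper LFD points of the red cell membrane list are replicates 1 to 3, and HPD replicate 4 is lowest in the monocyte and neutrophil lists.

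HPD supplied more protein than LFD, which the genes that handle amino acids address. Targets of ATF4, the transcription factor of the amino acid shortage response, were lower in HPD in 15 of 21 cases, with a median of -0.13 and 0 members at an unadjusted p under 0.05. Atf4 itself lay between -0.14 and 0.11 in LFD and between -0.51 and 0.13 in HPD, a difference of -0.19 ± 0.12. Asns, asparagine synthetase and a standard target of the pathway, differed by -0.12 ± 0.13 and overlapped fully. Gpt2, the mitochondrial alanine aminotransferase, stood at -0.79 ± 0.46, with LFD replicates 2 and 4 at 1.39 and 1.17 and HPD replicate 3 at -2.10, and its probe was above background on 5 LFD and 4 HPD arrays. The list median was -0.29 within slide 3 and -0.01 within slide 4.

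Amino acid transporters had a median of -0.03 (15 of 24 lower). The cationic amino acid carrier Slc7a1 stood at 0.32 ± 0.20, with its other probe at 0.11, the glutamine carrier Slc38a2 at 0.15 ± 0.10, with its other probe at -0.10, and the leucine carrier Slc7a5 at -0.19 ± 0.22. Slc43a1, another carrier of branched-chain amino acids, stood at -0.58 ± 0.42. The carriers thus had values on both sides of 0, and Slc7a5 turned to 0.44 within slide 4.

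Genes of amino acid breakdown showed no common direction. Branched-chain amino acid breakdown had a median of -0.02 (13 of 22 lower). Bcat2, which transfers the amino group of these amino acids, stood at 0.08 ± 0.14, Bckdk, the kinase that inhibits their oxidation, at -0.02 ± 0.15, and Auh, of leucine breakdown, at -0.44 ± 0.31. For the other breakdown and urea cycle genes the median was -0.05 (22 of 34 lower). Ass1, argininosuccinate synthase, stood at -0.82 ± 0.33 (limma, unadjusted p 0.0253), but its probe was well above background on 5 LFD arrays and 1 HPD array. Sdsl, a serine dehydratase-like enzyme, stood at 0.95 ± 0.52, with HPD replicate 5 at 3.20 and HPD replicate 3 at 1.97, and the highest LFD array at 1.46. The Sdsl probe was well above background on 4 LFD and 5 HPD arrays. The aspartate aminotransferase Got1 stood at -0.28 ± 0.43, with LFD replicate 6 far below the other LFD arrays at -1.65.

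Serine, glycine and one-carbon metabolism had a median of 0.10, and 12 of its 17 measured genes were higher in HPD. Slc25a32, the mitochondrial folate carrier, stood at 0.40 ± 0.30, with LFD from -0.97 to 1.01 and HPD from -0.05 to 0.68, so the groups overlapped. The list median was 0.02 or 0.00 with normexp correction, 0.06 without slide 1, 0.18 within slide 3 and -0.04 within slide 4.

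The mTOR pathway and ribosomal proteins, which amino acids regulate, differed little. Genes of the mTOR complex and nutrient sensing had a median of -0.02 (23 of 37 lower), with Rps6kb1, the S6 kinase, at 0.19 ± 0.13 and Ulk1, the kinase that starts autophagy, at -0.22 ± 0.15. Cytosolic ribosomal protein genes were higher in HPD in 62 of 70 cases, but the median was only 0.06, and members ranged from -0.11 to 0.26. Rps6, the substrate of the S6 kinase, was the highest. It ran from -0.11 through 0.17 to 0.31 in LFD and from 0.22 through 0.44 to 0.53 in HPD and differed by 0.26 ± 0.11 (limma, unadjusted p 0.0341), with 0.33 within slide 3 and 0.30 within slide 4. Rps23 stood at 0.20 ± 0.10. LFD replicate 2, on slide 1, had a list median of -0.23. Without slide 1 the median was 0.00 and 36 of 70 members were lower in HPD, and with slide as a block 39 were. Many ribosomal protein genes have near-identical pseudogenes that a probe may also read.

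HPD supplied less carbohydrate than LFD, which the genes of insulin signalling and glucose use address. In insulin signalling 20 of 26 genes were lower, with a median of -0.10. Against 1.22% of all genes, 2 of the 26 members were lower at an unadjusted p under 0.05 in limma. One of them was Slc2a4, the insulin-responsive glucose transporter GLUT4. In LFD it ran from -0.07 through 0.30 to 0.65 and in HPD from -1.95 through -0.53 to 0.11. HPD replicates 1, 3 and 5 lay between -1.95 and -0.99. HPD replicates 4 and 7 lay at 0.10 and 0.11 among the LFD arrays, and HPD replicate 2 at -0.08, just below them. It differed by -0.95 ± 0.33 (limma, unadjusted p 0.0134, adjusted p 1), its other probe by -1.29, and the difference was -1.04 without slide 1, -1.64 within slide 3 and -0.16 within slide 4. The platelet list divided the HPD arrays likewise. Its medians were -1.31 to -0.58 on HPD replicates 1, 3 and 5 and -0.11 to -0.09 on HPD replicates 2, 4 and 7. Among the LFD arrays that list was highest on replicate 2 (0.93), where Slc2a4 lay at 0.27. The part of platelets in the Slc2a4 values was not tested. Akt2, the form that mediates glucose uptake, stood at -0.33 ± 0.19 and Adipor1, a receptor of adiponectin, at -0.26 ± 0.15. Without slide 1 the list median was 0.00 and 13 of 26 members were lower.

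Glycolysis genes were lower in 18 of 26 cases, with a median of -0.12. Hexokinase 1 (Hk1), the first enzyme of the pathway, stood at -0.42 ± 0.21, with its other probe at -0.54. Gapdh stood at -0.41 ± 0.21 and -0.43 in its other probe, Eno1, an enolase, at -0.28 ± 0.16, and Pkm, pyruvate kinase, at -0.43 ± 0.21. The basal glucose transporter Slc2a1, which was also counted in the red cell membrane list, stood at -0.19 ± 0.14. Pkm was highest on LFD replicate 2 (0.56) and lowest on HPD replicate 3 (-1.05), and so was Gapdh (0.91 and -0.66). The platelet list was highest and lowest on the same arrays, at 0.93 and -1.31, and its part in these values was not tested. The glycolysis median was -0.10 without slide 1 and within slide 4, -0.25 within slide 3 and -0.05 with normexp correction.

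Genes of the pentose phosphate pathway, glutathione and antioxidant defence had a median of -0.07 (28 of 39 lower). Nqo1, a quinone reductase and a standard target of the stress factor NRF2, ran from -0.14 through 0.55 to 0.92 in LFD and from -0.23 through 0.05 to 0.25 in HPD. All LFD arrays but replicate 6 lay above all HPD arrays. It differed by -0.47 ± 0.17 (limma, unadjusted p 0.0140, adjusted p 1), by -0.44 without slide 1, -1.16 within slide 3 and -0.47 within slide 4, but by 0.03 when Cy5 alone was used. The ferritin heavy chain Fth1 stood at -0.61 ± 0.31, glutathione reductase (Gsr) at -0.52 ± 0.33 and transketolase (Tkt), of the pentose phosphate pathway, at -0.30 ± 0.18.

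Genes of lipid metabolism, with fat equal in both diets, gave small medians. Fatty acid oxidation and PPAR target genes stood at 0.04 (10 of 31 lower), fatty acid synthesis at -0.04 (19 of 28 lower) and cholesterol synthesis and uptake at 0.00 (14 of 27 lower). Cpt1a, which admits long fatty acids to mitochondria, differed by 0.00 ± 0.17, Fasn, fatty acid synthase, by -0.01 ± 0.12, Srebf1, the regulator of lipid synthesis, by -0.04 ± 0.11, and Ucp2, a mitochondrial carrier, by -0.16 ± 0.14. The diets overlapped in each of these 4 genes. Me1, malic enzyme, stood at -0.68 ± 0.38 and Hmgcs1, of cholesterol synthesis, at 0.24 ± 0.14. Genes of lipid droplets, lipolysis and cholesterol efflux had a median of -0.16 (14 of 18 lower), or -0.11 and -0.06 with normexp correction. Abca1, the exporter of cholesterol to HDL, stood at -0.46 ± 0.24. That median was -0.14 without slide 1, but -0.04 without HPD replicate 4. Mlycd, which degrades the inhibitor of Cpt1a, stood at -0.32 ± 0.18.

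Inflammatory cytokine, chemokine and NF-kB genes had a median of -0.08 (25 of 38 lower). The lowest difference was that of Ccl2, the chemokine that draws monocytes out of the bone marrow into tissues. It ran from -0.72 through 0.38 to 1.92 in LFD and from -3.26 through -1.45 to 0.91 in HPD. Of the HPD arrays, 4 lay below every LFD array and HPD replicate 2 lay above all LFD arrays but replicate 3. The difference was -1.66 ± 0.61 (limma, unadjusted p 0.0176, adjusted p 1), with -1.80 without slide 1, -3.85 within slide 3 and -0.12 within slide 4. On the HFD arrays Ccl2 lay between -1.34 and 0.71. Il1b, interleukin 1 beta, stood at -0.38 ± 0.37, and Il6r, the interleukin 6 receptor, at 0.26 ± 0.15. Immediate early genes, which respond within minutes to stimulation, had a median of -0.08 (27 of 35 lower), with Ier2 at -0.30 ± 0.18, and the median was 0.02 with slide as a block.

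For the questions that the diets raise, 32 measured genes were chosen. They came from amino acid handling, nutrient sensing, insulin signalling, glucose and lipid use and inflammation. Of these, 26 were lower in HPD, with a median of -0.11. In limma 3 reached an unadjusted p under 0.05, all lower, against 1.22% of all genes. Without slide 1, 17 of 32 were lower and the median was -0.03. With Cy5 alone 19 were lower and the median was -0.04. No gene passed. The medians of all lists stood between -0.58 and 0.10.

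**Figure D5:**
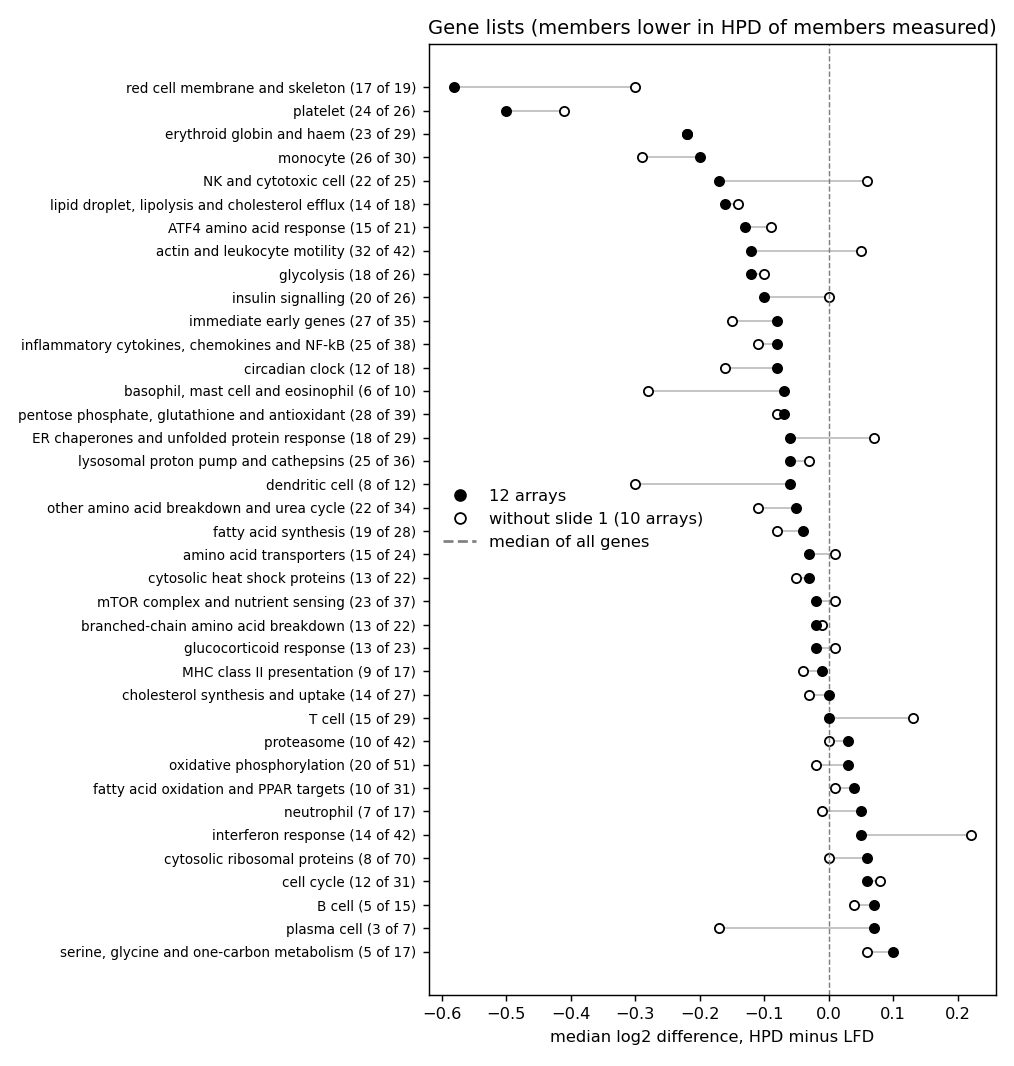
Median log2 difference, HPD minus LFD, of 38 gene lists over all 12 arrays (filled points) and without the 2 LFD arrays of slide 1 (open points), with the number of members lower in HPD of the number measured. The dashed line is the median of all genes, 0.001. Red cell membrane and platelet genes lie lowest over all arrays, at -0.58 and -0.50, and the NK, actin and ribosomal protein medians reach 0 or cross it without slide 1.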

How the data were processed

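RNA of 1 rat per array was labelled with Cy5 and a pool of the samples with Cy3, per the labels, with no dye swap. The submitters' processing notes name Agilent Feature Extraction 10.5.1.1, whose intensity values the authors deposited. The processed signals were background-subtracted, detrended and dye-normalized (LOWESS) by the scanner software, per the file headers. A deposited log2 table of 20256 probes was used as an alternative. All its columns had a median of 8.4, and differences between arrays followed the log2 ratios (correlation 0.873, slope 0.69), so its direction was matched while its processing and centring are not given in the sources used here.

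From the processed signals, log2(Cy5/Cy3) was taken, control spots and spots marked as outliers were left out, and spots were averaged per probe. A probe was kept if 6 or more of the 12 arrays had Cy5 well above background. limma 3.58.1 (R 4.3.3) compared 6 HPD with 6 LFD arrays, with Benjamini-Hochberg adjustment over all 23673 probes and a threshold of 0.05. The procedure was tested on simulated data with independent probes and no slide effect, which gave 7 false calls beside the shares in the text. Names came from RefSeq by accession for 11140 probes, by symbol for 5121 and by synonym for 3432. A further 10 had several genes and 21309 none. A gene was represented by its brightest kept probe. Named genes were the 10 with the smallest p per direction and genes from the lists (the 4 with the smallest p, and standard markers or diet genes). Some genes that the rule takes in are not reported here. Members and lists were chosen with earlier results of these data known. The labels describe the samples as separate animals, and the number of arrays limits the precision. Replicate numbers did not pair the samples, since deviations of same-numbered arrays correlated between -0.22 and 0.24. Alternatives varied the signal, scaling, filter, slide, arrays and probe of a gene.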

Additional observations from a re-analysis of the deposited data

Results flagged for a closer look

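Each named gene and each list median in each diet was tested for a single array far from the rest. These groups held 6 arrays, or 5 for Tmod1 in HPD. Of 280 groups, 16 (5.71%) held such an array, where a rate of 1 in 20 gives 14. LFD replicate 2 accounted for 5, LFD replicate 6 and HPD replicate 4 for 3 each, LFD replicate 5 and HPD replicate 7 for 2 each, and HPD replicate 2 for 1.

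On HPD replicate 4, Glycam1 lay at 1.23, with the other HPD arrays between 0.59 and 0.72, and Ift43 at -1.36, with the others between -0.75 and -0.40. Both values lay on the far side from LFD. The neutrophil list on the same array had a median of -0.84, with the other HPD arrays between -0.15 and 0.24. HPD replicate 2 was highest in its group for Nfil3 (0.55), a clock-controlled transcription factor, whose other HPD arrays lay between -0.75 and -0.33. On HPD replicate 7 the fatty acid synthesis list had a median of 0.15, against -0.06 to -0.01 on the other HPD arrays.

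On LFD replicate 2, Adipor1 lay at 0.60, Nfil3 at -0.67, the non-muscle myosin gene Myh9 at 0.76, the actin-binding thymosin gene Tmsb4x at 0.97 and the list of the lysosomal proton pump and cathepsins at 0.18. On LFD replicate 6, Got1 lay at -1.65, Hmgcs1 at 0.30 and the list of lipid droplets, lipolysis and cholesterol efflux at -0.36. On LFD replicate 5 the cytosolic heat shock list had a median of 0.21.

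Slc27a2, a very long chain acyl-CoA synthetase, lay at -5.34 on LFD replicate 5 and at -4.47 on HPD replicate 7, while the other arrays of the 2 diets lay between -0.82 and 1.46. Of the HFD arrays, 2 lay at -5.19 and -4.55. The gene differed by 0.10 ± 1.11 between the diets and its other probe by 0.29.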

How the results depend on the processing

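No probe passed in limma under any alternative with a test (lowest adjusted p between 0.183 and 1; 1 rat against 1 within slide 3 gives no test). The probes at an unadjusted p under 0.05, 522 here, numbered 1016 with normexp correction fitted on all spots, 298 in the deposited log2 table, 818 with Cy5 alone, 862 after scaling between arrays, 1318 with no filter, 345 with probes above background on all arrays, 812 with slide as a block, 850 with all 18 arrays and slide, 1519 without slide 1, 997 within slide 4, 2413 with array weights and 192 genes with the mean of all probes. With the replicate number as a block they numbered 1649, with 0 called, though the labels do not state that the numbers pair the animals. Leaving out each array in turn gave 367 (without HPD replicate 5) to 1748 (without LFD replicate 6), with 883 without HPD replicate 2.

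Of 1209 list medians under the alternatives, 1180 moved by less than the spread between arrays. Those of the leading lists that moved more were -0.62 within slide 3 and -0.03 within slide 4 for globin and haem genes, -1.11 and -0.10 there for red cell membrane genes, 0.28 within slide 3 for NK genes, -0.29 within slide 3 for ATF4 targets, -0.04 within slide 4 and 0.00 with normexp on all spots for one-carbon metabolism, and 0.16 in the deposited table for ribosomal proteins.

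Of 3100 values of 101 genes, 55 in 24 genes changed sign. Within slide 4 these were Gata1 0.20, Slc4a1 0.13, Cd14 0.03, Ebf1 -0.02, Asns 0.00, Slc7a5 0.44, Adipor1 0.02, Gsr 0.12, Me1 0.11 and Rsad2 0.16. Within slide 3 they were Pf4 0.52, Klrb1b 0.47, Prf1 0.21, Sdc1 0.24, Cpt1a 0.23 and Fasn 0.32. With slide as a block they were Slc7a5 0.08 and Cpt1a 0.01, and without slide 1 Slc7a5 0.00, Bckdk 0.00 and Cpt1a 0.16. With Cy5 alone they were Fryl 0.04, Nqo1 0.03, Srebf1 0.03, Cpt1a 0.01, Rps23 -0.18 and Tmsb4x 0.06. Nol3 was 0.01 with normexp on all spots, Srebf1 0.19 with the mean of probes, and Cpt1a 0.12 and Fasn 0.05 with array weights. Cpt1a and Fasn were 0.01 and 0.00 in the deposited table and both 0.01 after scaling. Leaving out an array gave -0.11 to 0.05 for Bckdk, -0.10 to 0.10 for Cpt1a, -0.06 to 0.04 for Fasn and -0.82 to 0.86 for Slc27a2. The cause was not tested.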

Other observations

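The interferon response list differed between the diets by a median of 0.05 (14 of 42 lower), or 0.22 without slide 1. Rsad2, the antiviral enzyme viperin, stood apart from it at -0.85 ± 0.53 and separated the LFD rats as the red cell genes did: LFD replicates 1 to 3 lay between 1.19 and 1.31, LFD replicates 4 to 6 between -1.47 and -0.77, and HPD arrays between -1.44 and 0.30. Genes of actin and leukocyte motility had a median of -0.12 (32 of 42 lower), with Myh9 at -0.35 ± 0.15, Tmsb4x at -0.31 ± 0.15 and the actin-severing protein gelsolin (Gsn) at -0.49 ± 0.24. LFD replicate 2 was highest in each of these 3 genes. The median was 0.00 without LFD replicate 2 and 0.05 without slide 1 (19 of 42 lower). Proteasome genes stood at 0.03 (10 of 42 lower), oxidative phosphorylation at 0.03 (20 of 51 lower) and cell cycle genes at 0.06 (12 of 31 lower). The circadian clock list stood at -0.08 (12 of 18 lower), with the clock kinase Csnk1e at -0.35 ± 0.16 and Nfil3 at -0.39 ± 0.23. The median of that list was 0.14 within slide 4. Glucocorticoid response genes stood at -0.02 (13 of 23 lower), genes of ER chaperones and the unfolded protein response at -0.06 (18 of 29, with 0.07 without slide 1), and cytosolic heat shock proteins at -0.03 (13 of 22).

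LFD rats varied more among themselves than HPD rats. Over 9813 genes measured on all 6 arrays of both diets, the median SD was 0.362 in LFD and 0.258 in HPD, and the LFD SD was larger in 70.7% of genes. Without the LFD arrays of slide 1 the median LFD SD was 0.263 and the share 50%.

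Detection differed little. On all 6 LFD arrays and at most 1 HPD array, 3 probes stood well above background, against 2 probes in the reverse, and 1 probe did so on all LFD arrays and no HPD array. Among the named genes only Slc27a2 had arrays that fell into 2 levels with a gap wider than 0.5 of their range between them, with 1 LFD and 1 HPD array in the lower.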
